A study of Homo sapiens with 10 samples.

Results

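The sites described here are places in the genome of H441 cells where TTF-1 was found at both times measured and Smad3 was found in neither condition measured. They were chosen by overlap of deposited ChIP-seq peak lists. A peak of the TTF-1 0 h list belonged to them when it shared at least 1 bp with a peak of the TTF-1 1.5 h list and none with a Smad3 peak of siTTF-1 or siControl cells. Of the 31083 TTF-1 peaks at 0 h, 11527 met the rule (37.1%, exact binomial 95% interval 36.55 to 37.6). They are called Smad3-free stable sites below. The other 8776 peaks found at both times carried Smad3 in at least one list and are called stable sites with Smad3. The peaks not found at 1.5 h were 9165 without Smad3 and 1615 with it.

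H441 is a lung adenocarcinoma line that expresses TTF-1, and A549 is a lung adenocarcinoma line that does not, per the labels. In ChIP-seq, antibody-bound chromatin is sequenced and regions with more reads than input DNA are called as peaks. The libraries used were TTF-1 at 1.5 h and 0 h in H441, Smad3 in H441 cells depleted of TTF-1 by siRNA (siTTF-1) or given a control siRNA (siControl), Smad4 in siTTF-1 H441 cells, and Smad3 in A549, with 1 library each. A treatment with 1 ng/ml TGF-β3 for 1.5 h is given for every sample. For the TTF-1 0 h library this stands against the time in its title, so that the 0 h cells were untreated is a reading of the title. No siRNA is named for the cells of the TTF-1 maps, whereas both Smad3 maps of H441 come from siRNA-treated cells. Peak lists hold no expression values, so the identity of the lines could not be checked against marker genes.

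TTF-1, the product of NKX2-1, is a homeodomain transcription factor that directs lung development and the expression of surfactant and secretory genes in lung epithelium. Smad3 is phosphorylated by the activated TGF-β receptor, joins Smad4 and enters the nucleus. Smad proteins hold DNA weakly by themselves and usually bind beside other transcription factors, among them lineage factors such as TTF-1. Sites that hold TTF-1 and no Smad3 peak are thus the portion of a lineage factor's map at which a TGF-β-responsive partner was not called.

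The depth of the libraries is unknown, because peak lists hold no read counts. A site without a Smad3 peak is one at which none passed the false discovery rate limit of 1%, and Smad3 below that limit was not measured. With 1 library per condition, no difference could be set against replicate spread. The intervals below cover counting error over peaks only, and peaks of 1 library are not replicates. The deposited score was the same for every peak, so the peak number, which runs from 1 to the length of each list, was used as an order. What it stands for is not stated in the labels, and wider peaks tended to have lower numbers. Over the Smad3-free stable sites the Spearman correlation of width with number at 0 h was -0.48 and Pearson's r -0.45 (n = 11527 peaks of 1 library).

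The rule did not use the peak number, but the overlaps it used went with that number, so the place of these sites is a description. Of all TTF-1 0 h peaks, 65.3% were found at 1.5 h and 33.4% carried Smad3, and both shares chose the sites. The Smad3-free stable sites filled the middle of the list and were scarce at its very head. Only 6 of the first 100 peaks at 0 h and 225 of the first 1000 were among them. The 1.5 h list looked alike, with 4 of its first 100 and 194 of its first 1000 peaks paired with such a site. With the 0 h list cut into 5 equal strata by peak number, they made up 40.7% of stratum 1, 58.4% of stratum 2, 49.5% of stratum 3, 26.3% of stratum 4 and 10.6% of stratum 5. Stable sites with Smad3 made up 59.3% of stratum 1 and declined in each next stratum to 6.0% of stratum 5. The 0 h-only sites without Smad3 were 1 peak in stratum 1 and 71.5% of stratum 5. In stratum 2 the Smad3-free stable sites thus reached their greatest share, and they outnumbered the stable sites with Smad3 in every stratum but stratum 1.

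**Figure D1:**
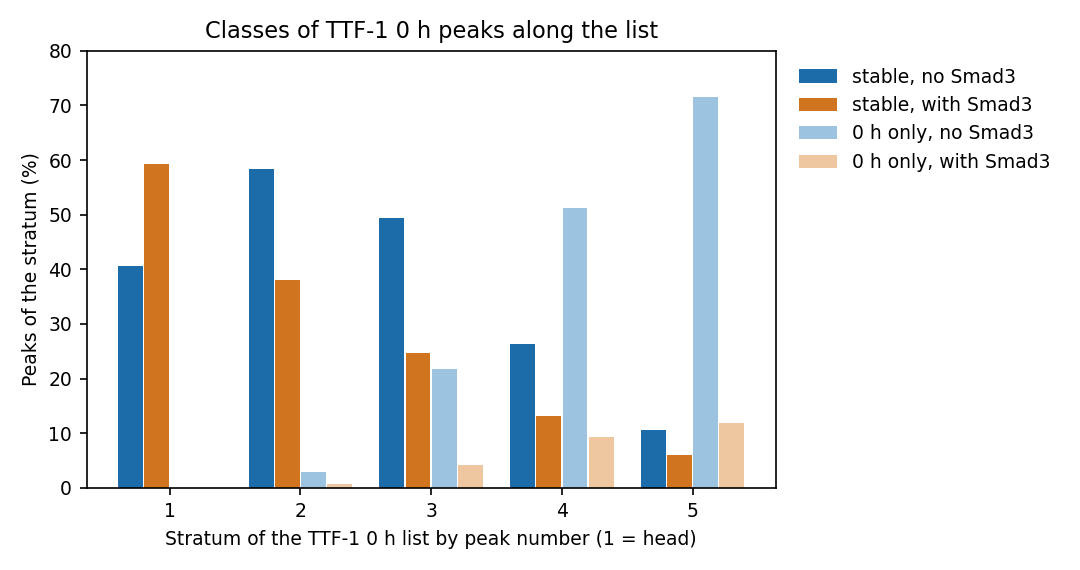
Share of each class (%, vertical axis) in 5 equal strata of the TTF-1 0 h list by peak number (horizontal axis); bars are the 4 classes that overlap with TTF-1 1.5 h and Smad3 defines. Smad3-free stable sites are highest in stratum 2 at 58.4%, while stable sites with Smad3 lead in stratum 1 at 59.3% and 0 h-only sites without Smad3 in stratum 5 at 71.5%.

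The Smad3-free stable site nearest the head of the 0 h list lay on chromosome 6 at 10269401 to 10270199 (hg18, positions counted from 1). It had number 22 at 1.5 h and number 17 at 0 h, with a width of 799 bp at both times. The nearest Smad3 peak of either list was 104.1 kb away. The next lay on chromosome 18 at 10010001 to 10010999, with number 194 at 1.5 h and 53 at 0 h, and 53.4 kb separated it from Smad3. A site on chromosome 11 at 3316801 to 3317749, with numbers 128 at 1.5 h and 69 at 0 h, was the most isolated of the first 6, since the next TTF-1 0 h peak was 160.0 kb away and the next Smad3 peak 334.5 kb away. On chromosome 20, the site at 6943801 to 6944599 had number 189 at 1.5 h and 70 at 0 h. The one at 168161351 to 168162499 of chromosome 1 had 126 at 1.5 h and 92 at 0 h, and that at 68351551 to 68352449 of chromosome 12 had 108 at 1.5 h and 99 at 0 h. All 6 were thus among the first 200 peaks at 1.5 h as well, and the closest of them to Smad3 was the last, at 13.5 kb. At the chromosome 20 site the 1.5 h peak had 1899 bp, against 799 bp at 0 h, and met 2 peaks of the 0 h list. Its number at 1.5 h thus includes a neighbouring call. These sites are named by position, because genes, exons and sequences at the sites were not analysed here.

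Smad3-free stable sites were narrower than stable sites with Smad3 and wider than those found only at 0 h. Their median width at 0 h was 599 bp (lowest 149 and highest 2749 bp), against 749 bp (149 and 3899 bp) for stable sites with Smad3 and 399 bp (99 and 1799 bp) for 0 h-only sites without Smad3. The 3 ranges overlapped. A width of 1500 bp or more was held by 154 of them (1.3%), against 513 (5.8%) of the stable sites with Smad3. Within stratum 1 the median widths were 799 bp without Smad3 and 949 bp with it, within stratum 2 they were 649 bp without it and 699 bp with it, and within stratum 5 both were 399 bp. Width goes with the calling of a peak at 1.5 h and with Smad3 in the lists that the rule used, so no test was made.

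The widest Smad3-free stable site was on chromosome 9 at 81602901 to 81605649, with 2499 bp at 1.5 h and 2749 bp at 0 h. A site on chromosome 4 (57241051 to 57243749) had 1799 bp at 1.5 h and 2699 bp at 0 h. On chromosome 13 (94685601 to 94688299) the widths were 2549 bp at 1.5 h and 2699 bp at 0 h, and on chromosome 12 (93180051 to 93182649) they were 2399 bp and 2599 bp. All 4 were narrower at 1.5 h. The chromosome 13 site also stood near the head of both lists, at number 406 at 1.5 h and 135 at 0 h, whereas the chromosome 4 site had numbers 5039 and 3412. The chromosome 12 site was the closest of the 4 to Smad3, at 6.6 kb.

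The next comparison set TTF-1 at 1.5 h against 0 h at these sites. The rule asked for overlap between the times, so that the paired peaks lay close together largely follows from it, and their positions and widths are given as a description with no test. Centres of the paired peaks were a median of 25 bp apart, at most 50 bp apart at 74.98% of the Smad3-free stable sites, and over 200 bp apart at 400 sites (3.5%). Among stable sites with Smad3, whose peaks were wider, 71.4% had centres at most 50 bp apart. For 11350 of the 11527 sites (98.5%) 1 peak at 0 h met 1 peak at 1.5 h. The sites were paired with 11493 distinct 1.5 h peaks, 54.0% of that list. Widths at the 2 times went together, with Spearman's rho 0.80 and Pearson's r 0.79 across the 11527 sites, which share their 2 libraries. Peak numbers did so with rho 0.78 and r 0.75.

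TTF-1 peaks at the Smad3-free stable sites were somewhat narrower at 1.5 h. The quartiles of width were 399 and 749 bp at 1.5 h, against 449 and 799 bp at 0 h, and the median change per site was -50 bp (quartiles -100 and 0 bp), which is 1 step of the deposited positions. At 6572 sites (57.0%, 56.1 to 57.9) the peak was narrower at 1.5 h, at 2328 (20.2%) the widths were equal and at 2627 (22.8%) it was wider. Stable sites with Smad3 had a median change of 0 bp, and 48.2% of them were narrower at 1.5 h. Within strata of the 0 h list, both classes had a median change of -50 bp in strata 1 and 2 and 0 bp in stratum 4. The medians without and with Smad3 were -50 and 0 bp in stratum 3, and 0 and 50 bp in stratum 5. These widths come from the lists that chose the sites, and the classes were not matched on width. The share narrower at 1.5 h was the larger one without Smad3 in each stratum of the 0 h list. In stratum 1 the peak was narrower at 59.7% of sites without Smad3 and 50.9% with it, in stratum 3 at 57.4% and 48.95%, and in stratum 5 at 33.2% and 25.3%. The 1.5 h list held 21291 peaks and the 0 h list 31083, and the part of list length in these widths was not tested.

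**Figure D2:**
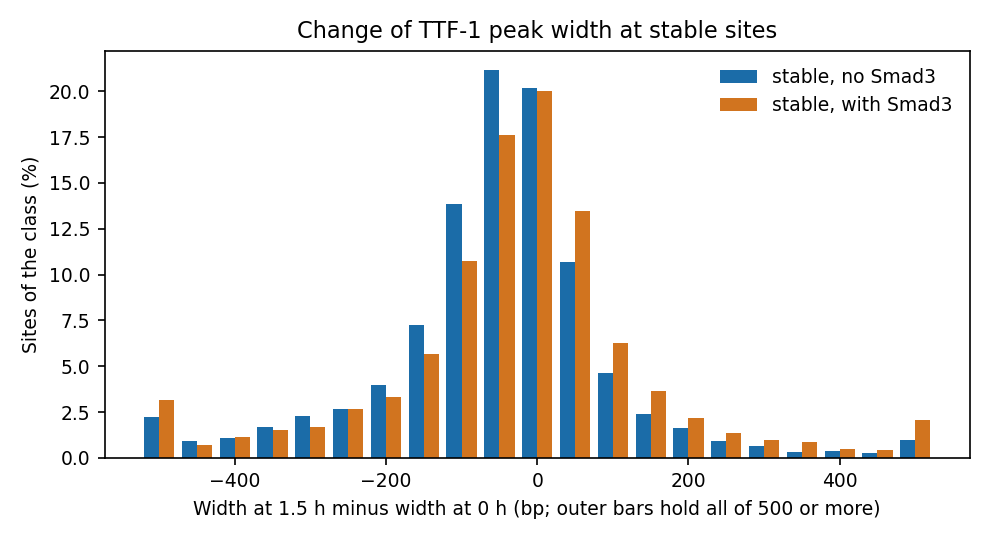
Distribution of the TTF-1 peak width at 1.5 h minus that at 0 h (bp, horizontal axis; steps of 50 bp, outer bars hold all changes of 500 bp or more) as a share of the sites of each class (%, vertical axis). A change of -50 bp is the most frequent one without Smad3 (21.2% of sites), and equal widths are the most frequent with Smad3 (20.03%).

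Large changes of width were few. Against 181 (2.06%) of the stable sites with Smad3, the peak was at least 500 bp wider at 1.5 h at 115 Smad3-free stable sites (0.998%). At 82 of these 115 the 1.5 h peak also covered a further 0 h peak. The largest gain was on chromosome 3 at 191584901 to 191585199, where a 2699 bp peak with number 2417 at 1.5 h met a 299 bp peak with number 30356 at 0 h. A gain of 1950 bp followed on chromosome 17 (68108751 to 68109399), then one of 1700 bp on chromosome 7 (33333651 to 33334099). At each of these 3 sites the single 1.5 h peak met 2 peaks of the 0 h list, so the width gained there includes a neighbouring call. The peak was at least 500 bp narrower at 275 (3.13%) of the stable sites with Smad3 and at 258 Smad3-free stable sites (2.24%). Sites named next are Smad3-free. The largest loss was on chromosome 1 at 203553351 to 203555799, with 749 bp at 1.5 h against 2449 bp at 0 h. It was followed by 2 sites of chromosome 2, where the peak at 98851651 to 98853349 had 349 bp at 1.5 h against 1699 bp at 0 h, and that at 201383251 to 201384849 had 399 bp against 1599 bp.

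The Smad3-free stable sites also stood later in the order of TTF-1 peaks at 1.5 h than at 0 h, relative to the stable sites with Smad3. The 20303 stable sites were ranked among themselves at each time by peak number. A site's place is its rank as a percent of all stable sites, and a larger place lies nearer the end. The median place of the Smad3-free stable sites was 60.2 at 1.5 h and 57.2 at 0 h, and that of stable sites with Smad3 was 35.4 at 1.5 h and 39.0 at 0 h. At 1.5 h, 6638 Smad3-free stable sites (57.6%, 56.7 to 58.5) held a later place than at 0 h, against 3946 (45.0%, 43.9 to 46.0) of the stable sites with Smad3 and 52.1% of all stable sites. The difference was 12.6 points. It is a description, since the peak numbers come from the lists that chose the sites. Places are relative, so a place gained in one class is lost in the other, and this says nothing of the amount of TTF-1 at either. The comparison was chosen after values were seen.

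The difference had the same sign in each stratum of the 0 h list. In stratum 1 a later place at 1.5 h was held by 71.7% of sites without Smad3 and 55.3% with it, in stratum 2 by 66.7% and 46.5%, and in stratum 3 by 56.7% and 37.7%. In stratum 4 the shares were 35.5% and 24.6%, and in stratum 5 they were 12.3% and 7.2%. Sites late in the 0 h list can mostly move only forward, which both classes show. In stratum 2 the median change of place was 7.28 points later without Smad3 and -1.27 points with it. Within 20 strata of place the difference was 17.2 points. With only the sites over 10 kb from any Smad3 peak as the Smad3-free class it was 13.8 points.

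**Figure D3:**
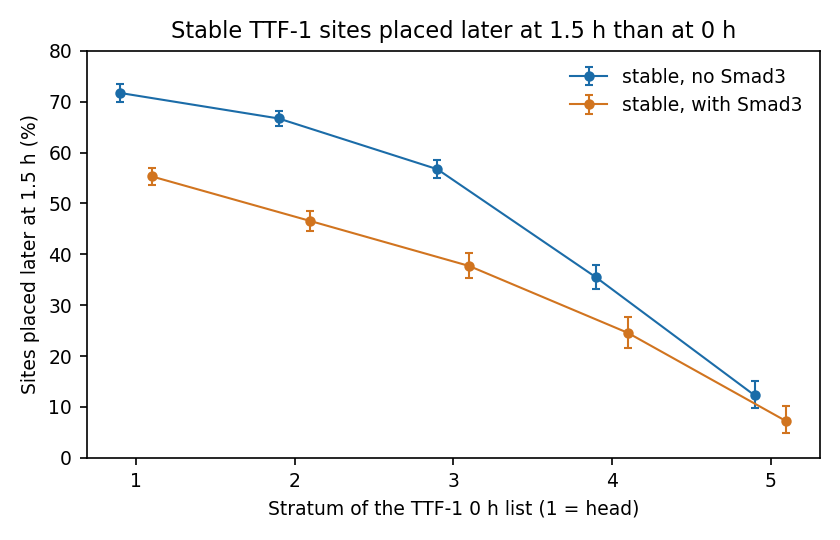
Share of stable TTF-1 sites that held a later place in the order at 1.5 h than at 0 h (%, vertical axis) by stratum of the 0 h list (horizontal axis), for sites without and with Smad3; points are shares and bars exact binomial 95% intervals. The sites without Smad3 lie higher in each of the 5 strata, from 71.7% against 55.3% in stratum 1 to 12.3% against 7.2% in stratum 5, where the intervals overlap.

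Libraries that the rule did not use showed how far the absence of Smad3 extends to other Smad maps. An A549 Smad3 peak was present at 89 Smad3-free stable sites (0.77%, 0.62 to 0.95), against 944 (10.8%, 10.1 to 11.4) of the stable sites with Smad3. The share was 3.94% over all TTF-1 0 h peaks and 5.09% over the stable ones. The difference of -9.99 points (Newcombe 95% interval -10.7 to -9.33) was present in every stratum of the list. The shares were 0.67% without and 9.7% with Smad3 in stratum 1. They were furthest apart in stratum 4, at 1.04% without and 13.3% with Smad3, and were 1.2% and 11.4% in stratum 5. A549 cells lack TTF-1 and were mapped with the same Smad3 antibody as H441, per the labels. The A549 list thus shares its antibody with the Smad3 lists of the rule. Against the 0 h-only sites without Smad3, of which 60 (0.65%) had an A549 peak, the difference was 0.12 points (-0.12 to 0.35), so none was detected between Smad3-free sites found at both times and at 0 h only.

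Smad4 of siTTF-1 H441 cells was nearly missing from the Smad3-free stable sites. It was called at 14 of them (0.12%, 0.066 to 0.20), against 686 (7.8%, 7.3 to 8.4) of the stable sites with Smad3, 2.56% of all TTF-1 0 h peaks and 3.45% of the stable ones. The difference was -7.70 points (-8.28 to -7.15). Where at least 50% of the 0 h peak had to be covered for every overlap, it was -2.57 points, with 0.0083% of sites without Smad3 and 2.58% with it. Smad4 peaks were narrow for that rule, with a median of 299 bp, against 599 bp for the Smad3-free stable sites at 0 h. The Smad4 list and one of the Smad3 lists used by the rule come from the same siTTF-1 condition, and Smad3 and Smad4 bind as a complex, so the low share of Smad4 is not independent of the rule. For 0 h-only sites without Smad3 the count was 8 (0.087%), and the difference from the Smad3-free stable sites was 0.034 points (-0.064 to 0.13).

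**Figure D4:**
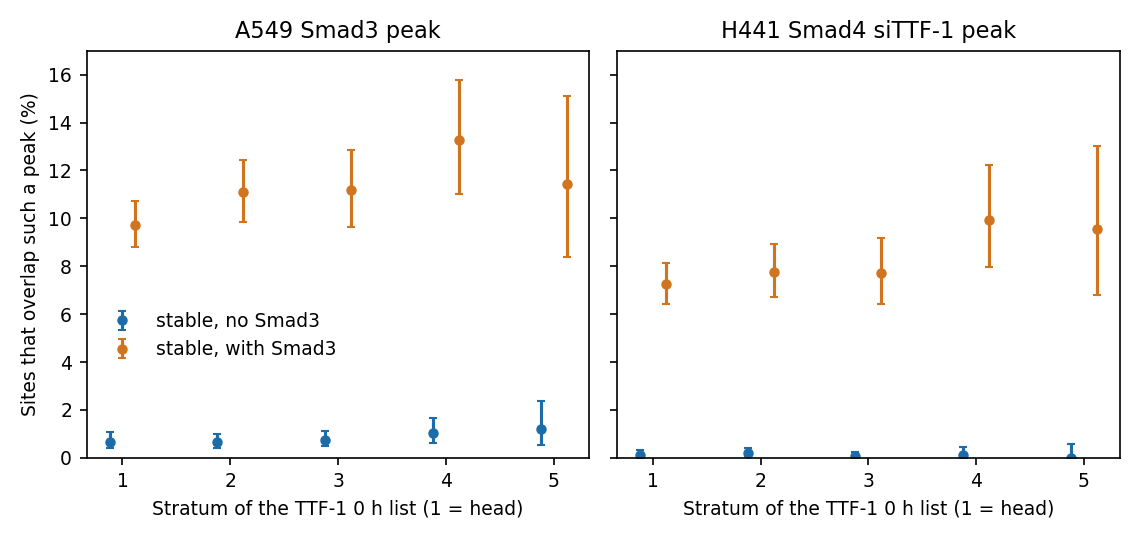
Share of stable TTF-1 sites that overlap an A549 Smad3 peak (left) or a Smad4 peak of siTTF-1 H441 cells (right) (%, vertical axis) by stratum of the TTF-1 0 h list (horizontal axis), with exact binomial 95% intervals. Sites without Smad3 stay at or below 1.2% for A549 Smad3 and 0.19% for Smad4 in each stratum, while sites with Smad3 lie between 7.2% and 13.3%.

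The Smad3-free stable sites with an A549 peak were spread over the list, from number 894 to 30607 at 0 h with a median of 13733. They met 88 A549 peaks (3.5% of that list) with a median number of 1459 among 2535. An H441 Smad3 peak lay within 10 kb of 38 of the 89 sites (42.7%), against 24.99% of all Smad3-free stable sites. The first by 0 h number lay on chromosome 2 at 62649701 to 62650449 and met A549 peak number 676 (62650401 to 62651249) at its edge, with H441 Smad3 8.1 kb away. The second, on chromosome 9 at 74097601 to 74098449, held A549 peak number 1859 (74097751 to 74098199) inside it and lay 148.3 kb from H441 Smad3. The next lay on chromosome 2 (28035001 to 28036299, A549 number 2356) and chromosome 12 (74670151 to 74670949, A549 number 499). These 4 sites thus had a Smad3 peak in the line without TTF-1, and TTF-1 without a Smad3 call in H441.

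Of the 14 Smad3-free stable sites with Smad4, the first by 0 h number lay on chromosome 2 at 189859251 to 189859849. It also held an A549 Smad3 peak (189859201 to 189859699), and only 2 sites in all held both. Its Smad4 peak had number 1591 in a list of 1605, while H441 Smad3 was 106.5 kb away. Smad4 peak number 734 met the site at 49326201 to 49326799 of chromosome 22, number 1428 that at 63809651 to 63810499 of chromosome 10, and number 526 that at 77176851 to 77178449 of chromosome 1. The last of these lay 4.9 kb from H441 Smad3 and the other two 114.7 and 45.0 kb. The median Smad4 number over the 14 sites was 784.5, near the middle of the list of 1605, and the lowest was 225. Smad4 peaks there had a median width of 249 bp, against 299 bp for the Smad4 list. An H441 Smad3 peak lay within 10 kb of 4 of the 14 sites (28.6%).

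Distances from the Smad3-free stable sites to Smad3 are a description, since the rule left out every site that overlapped Smad3. No background of other genome positions was measured. The gap to the nearest H441 Smad3 peak had a median of 36251 bp (quartiles 10001 and 110201 bp). Taken separately, the median gap was 44851 bp to the siTTF-1 list and 64151 bp to the shorter siControl list. A Smad3 peak lay within 10 kb of 2881 sites (24.99%) and within 500 bp of 299 (2.59%). For the 0 h-only sites without Smad3 the shares were 23.5% and 2.66%, with a median gap of 40201 bp. Among the 2881 sites, 1661 had a peak of both Smad3 lists within 10 kb, 820 of the siTTF-1 list only and 400 of the siControl list only. At 2301 of them (79.9%) the nearest Smad3 peak overlapped a TTF-1 0 h peak of its own. The Smad3-free site and the TTF-1 peak with Smad3 were then separate TTF-1 peaks. The share of all H441 Smad3 peaks that overlap a TTF-1 0 h peak was not counted, so 79.9% has no background here.

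**Figure D5:**
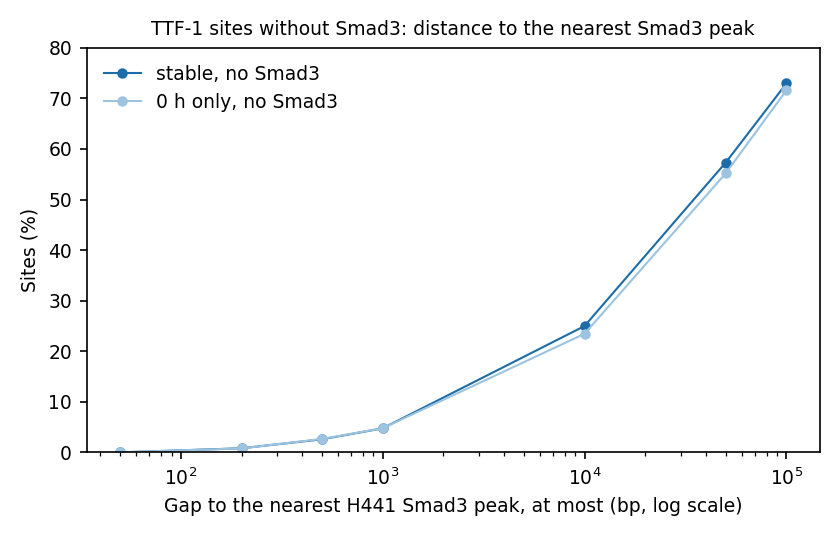
Share of TTF-1 sites without Smad3 (%, vertical axis) that have an H441 Smad3 peak within a given gap (bp, horizontal log axis), for stable sites and for sites found only at 0 h. The curves run close together, with 2.59% of stable and 2.66% of 0 h-only sites within 500 bp, and 24.99% of stable and 23.5% of 0 h-only sites within 10 kb.

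Nearness of the other Smad maps followed the same order as overlap. An A549 Smad3 peak lay within 10 kb of 556 Smad3-free stable sites (4.8%, 4.4 to 5.2), against 16.96% (16.2 to 17.8) of the stable sites with Smad3 and 8.6% of all TTF-1 0 h peaks. A Smad4 peak of siTTF-1 cells lay within 10 kb of 306 (2.7%, 2.4 to 3.0), against 13.0% (12.3 to 13.7) and 5.89% of all. The differences between the stable classes were -12.1 points (-13.0 to -11.3) and -10.4 points (-11.1 to -9.62). Against 0 h-only sites without Smad3, the stable sites had 0.69 points more with A549 Smad3 nearby (0.12 to 1.25) and 0.56 points more with Smad4 nearby (0.14 to 0.97). Sites close together can share the same nearby peak, which the intervals leave out. No alternative setting was run for these small differences.

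Smad3-free stable sites were less crowded than those with Smad3. Another TTF-1 0 h peak lay within 10 kb of 5748 of them (49.9%, 48.95 to 50.8), against 60.6% (59.5 to 61.6) of the stable sites with Smad3, 45.7% of the 0 h-only sites without Smad3 and 51.9% of all. The difference was -10.7 points (-12.1 to -9.32) from stable sites with Smad3 and 4.18 points (2.81 to 5.55) from 0 h-only sites without Smad3. It is a description, since the spacing comes from the 0 h list that chose the sites. Peaks near each other count each other as neighbours, which the intervals leave out. The share varied little along the list, between 48.9% in stratum 3 and 50.4% in stratum 2. Where a neighbour was present within 10 kb, the nearest was another Smad3-free stable site in 41.4% of cases and a stable site with Smad3 in 27.7%. For stable sites with Smad3 the same shares were 29.2% and 43.0%. Over the whole TTF-1 0 h list, Smad3-free stable sites made up 37.1% and stable sites with Smad3 28.2%. The neighbours of Smad3-free stable sites were thus of each class in shares near those of the list.

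Runs of Smad3-free stable sites less than 10 kb apart were mostly short. Of the 11527 sites, 8532 were in no run with another such site and 2995 (26.0%) lay in runs of at least 2. There were 231 runs of at least 3 and 8 of at least 5. TTF-1 peaks of other classes were left out of the runs, so a site in no run can still have one nearby. Runs of the other classes were not counted, so 26.0% has no background here. The longest run held 9 sites over 29.2 kb of chromosome X (64806401 to 64835599), with numbers from 439 to 25265 and widths from 449 to 1399 bp. In this run lay 2 siTTF-1 Smad3 peaks and no siControl Smad3 peak. A run of 8 sites spanned 42.8 kb of chromosome 9 (83637351 to 83680199) and a run of 7 spanned 31.1 kb of chromosome 1 (154693701 to 154724849), and neither held any Smad3 peak. A further run of 7 was on chromosome 11 (78161851 to 78201999), with 1 siTTF-1 Smad3 peak inside. A run of 6 on chromosome 2 (158390451 to 158423399) held 1 siControl and 1 siTTF-1 Smad3 peak. The runs were picked by their number of Smad3-free stable sites. TTF-1 at both times and no Smad3 at their sites thus follow from the rule.

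Over windows of 1 Mb the sites were densest on chromosome 3 at 190000001 to 191000000, with 25 of the 42 TTF-1 0 h peaks there. That window held 9 stable sites with Smad3 and 8 sites found only at 0 h. The next were 30000001 to 31000000 on chromosome 7, with 20 of 35, and 159000001 to 160000000 on chromosome 2, with 19 of 34. Windows on chromosome 6 (56000001 to 57000000) and chromosome 9 (83000001 to 84000000) also held 19. The 2357 windows with any such site held a median of 4.

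Every chromosome except Y carried these sites, in shares that varied between chromosomes. Their share of the TTF-1 0 h peaks ran from 31.7% (26.7 to 37.05) on chromosome 21 to 41.0% (39.2 to 42.9) on chromosome 2, and was 34.4% (32.7 to 36.1) on chromosome 1. As a share of the stable sites it ran from 49.8% on chromosome 21 to 62.7% on chromosome X. The median width was 599 bp on all of these chromosomes but 9 and 11, where it was 649 bp, and 19, where it was 1 step of 50 bp lower. Chromosome Y had 2 TTF-1 0 h peaks, and neither was among them.

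Values at the limits of the rule show how the sites were cut. Just inside the overlap with 1.5 h, a site on chromosome 6 (125429751 to 125430449) shared 49 bp with its 1.5 h peak, and sites on chromosome 2 at 187492501 to 187492699 and at 222623001 to 222623249 shared 149 bp. Just outside, a 0 h peak on chromosome 1 at 11998101 to 11998499 missed a 1.5 h peak by 1 bp, and those at 12511701 to 12512399 and 20088851 to 20089199 on that chromosome by 51 bp. Just inside the limit for Smad3, the site at 34897901 to 34898299 of chromosome 7 lay 1 bp from a Smad3 peak, and those on chromosome 1 (6841801 to 6842699) and chromosome 2 (46989951 to 46990299) lay 51 bp away. Just outside it, stable peaks on chromosome 4 (48605801 to 48606249 and 102357451 to 102357949) and chromosome 9 (84958501 to 84959099) shared 49 bp with one. In all, 95 Smad3-free stable sites had Smad3 within 200 bp.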

How the data were processed

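Peak lists of 7 libraries were deposited with the series, and 3 input DNA samples were not analysed here. Per the labels, the H441 Smad3 and TTF-1 lists were cut at a false discovery rate of 1%, the A549 list at 5% and the Smad4 lists at 10%. Per the submitters' processing notes, positions are on hg18. For aligner and peak caller: not given in the sources used here. The deposited score was 1000 for every peak and was not used. Derived lists and the Smad4 siControl list of 1 peak (it overlapped 0 of the sites) were not used further. In all, 1 track line was skipped. Overlap meant at least 1 bp shared, and the 1.5 h peak sharing most was paired with each site. Shares have exact Clopper-Pearson and differences of shares Newcombe 95% intervals. A difference was called where its interval left out 0. Named sites were the 6 with the lowest 0 h number, the 4 widest, the 3 with the largest gain and the 3 with the largest loss of width, the first 4 with A549 Smad3 and with Smad4, and the 3 nearest each limit of the rule, without chromosome 8. Runs and windows were named by their number of sites. The order at both times was compared after values were seen. The sites, tests and alternatives were chosen with earlier results of these data known. Motif, base composition and gene counts were not run without an hg18 genome. Overlap counts were tested on simulated data and against bedtools 2.31.1. Python 3.11.15, NumPy 2.4.6, pandas 2.3.3, SciPy 1.17.1, statsmodels 0.14.6 and matplotlib 3.10.9 were used.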

Additional observations from a re-analysis of the deposited data

How the results depend on the processing

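The A549 Smad3 and Smad4 differences between stable sites without and with Smad3 kept their direction and an interval without 0 under all 9 alternatives each: 3 other overlap rules, the first 50% of each list, autosomes only, merged peaks, the siControl Smad3 list alone, and strata of peak number or width. They ranged from -7.62 to -10.4 points for A549 Smad3 and from -2.57 to -8.39 points for Smad4. The smallest Smad4 value came with at least 50% of the 0 h peak covered. The median width was 299 bp in the Smad4 list. At 0 h it was 599 bp for Smad3-free stable sites and 749 bp for stable sites with Smad3. A Smad4 peak narrower than 50% of a site cannot meet that rule. The part of width in the smaller value was not tested. The 6 alternatives for the place in the order, chosen after seeing the data, gave 12.55 to 17.2 points.

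The number of Smad3-free stable sites was 6396 with the first 50% of each list, which holds fewer peaks by construction, and stayed within 1.5 times of 11527 otherwise. Their share of the 0 h list moved beyond its interval to 38.8% with 50% coverage, 37.7% with centres within 200 bp, 41.2% with the first 50% of each list and 42.4% with the siControl Smad3 list alone. Another TTF-1 0 h peak lay within 5 kb of 36.3% and within 20 kb of 65.1% of the sites. The median width change was -50 bp in strata 1 to 3 and 0 bp in strata 4 and 5. Base composition, motifs and genes near the sites were not run, since no hg18 genome was used here. No paired analysis was possible because each condition had 1 library. Depth is unknown and limits every absence: a site without a Smad3 peak may hold Smad3 below the calling limit.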
